A study of Mus musculus with 9 samples.

Results

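The genes of elastic fibres and microfibrils were described in the ovaries of WT mice and of mice lacking estrogen receptor β (ERβKO). The set was chosen by gene name and held 10 of the 46078 genes in the count table, each found as 1 row: the fibrillins Fbn1 and Fbn2, the microfibril-associated genes Mfap2, Mfap4 and Mfap5, elastin (Eln), the fibulins Fbln1, Fbln2 and Fbln5, and Emilin1. Of these, Fbn2 was lower in ERβKO ovaries by 3.11-fold and passed the test, Mfap4 and Mfap5 had higher levels in every ERβKO ovary than in any WT ovary without passing it, and Emilin1 differed by less than its standard error.

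Elastic fibres have a core of cross-linked elastin laid onto a scaffold of microfibrils, which are polymers of fibrillin decorated with other glycoproteins. Microfibrils also occur without elastin, and they hold TGF-beta in a latent form through the latent TGF-beta binding proteins (LTBPs). In the ovary this matrix lies in the stroma, the theca layer around follicles and the vessel walls, and it is remodelled as follicles grow and corpora lutea form.

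RNA-seq was performed on whole snap-frozen ovaries of 5 WT and 4 ERβKO mice, with 1 library per mouse, all C57BL/6J. ERβKO mice had exon 3 of Esr2, the gene of ERβ, deleted in the germline through a floxed allele (Esr2 tm1Gust) and a Rosa26-Cre deleter line, and the WT mice were offspring without Cre, so the deletion was not restricted to a cell type. The mice of the whole study were 4 to 20 weeks old, and neither the age nor the stage of the estrous cycle was given for a single ovary. Every sample was labelled Untreated, while the protocol text that all samples share describes a high-fat or control diet and injections of an ERβ agonist (DPN) or vehicle, and which of these a given mouse received was not stated.

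Between 12353740 and 18717510 fragments were counted per library. Log2 fold changes (log2FC) are ERβKO over WT from edgeR's quasi-likelihood test on the counts, with Benjamini-Hochberg adjustment over the 16722 genes tested, and each is given with its standard error (SE). DEGs were genes with an adjusted p under 0.05, a log2FC beyond 0.4 in either direction and a mean of more than 1 FPKM in 1 genotype or both, criteria taken from the study's methods. FPKM values, which are per kilobase of transcript and so comparable between genes, are those the authors deposited. Esr2 itself checks little here, since its count covers the whole gene and not exon 3 alone: it was at 12.4 to 23.9 FPKM in WT and 10.5 to 23.7 in ERβKO ovaries. On the first principal component (35.9% of the variance), WT replicate 2 lay at 9.43, outside the -43.8 to -15.6 of the other WT ovaries and short of the 19.4 to 35.4 of the ERβKO ovaries, so values that rest on it are given with and without it. Markers of granulosa, luteal, stromal and smooth muscle cells were expressed in every library. Markers of oviduct epithelium were too, with Ovgp1 at 1290 to 2360 FPKM in WT and 1480 to 1910 in ERβKO ovaries. How much of each sample was oviduct was not tested. Among the theca markers, Insl3 was at 0 in 4 libraries.

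Of the 10 members, which were all tested, 1 was a DEG, in the lower direction, where 1.72% of all tested genes were DEGs (0.801% lower, 0.915% higher). With DESeq2, the tool the study used, 3 members were DEGs (Fbn2 lower, Fbln1 and Mfap5 higher), where 4.78% of all tested genes were (2.22% higher, 2.56% lower). Without WT replicate 2, edgeR called 3 members (Fbn2 lower, Eln and Mfap5 higher) and 919 of all genes, against 287 with it. An unadjusted p under 0.05 was reached by 7 members, against 19.8% of all genes. The FPKM of the genotypes did not overlap for 3 members, 1 lower and 2 higher, against 7.61% of all genes (3.31% lower, 4.29% higher). The log2FC was above 0 for 7 members and below 0 for 3, with a median of 0.26, while 49.9% of all genes were above 0. These are whole ovaries, in which fewer cells of a type and less RNA per cell cannot be told apart.

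**Figure D1:**
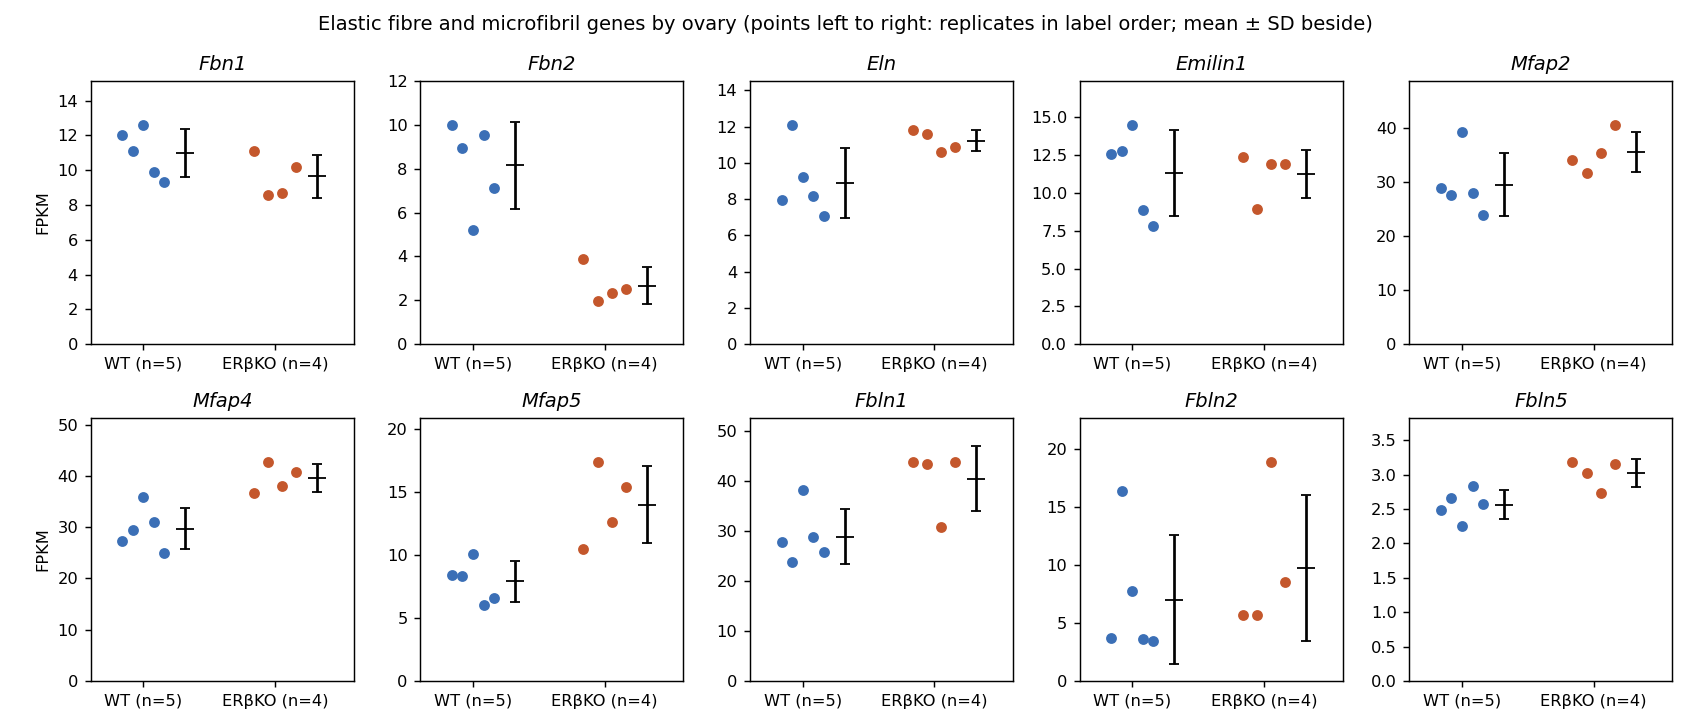
Deposited FPKM of the 10 genes in each ovary, with blue points for WT (n = 5), orange points for ERβKO (n = 4) and the mean ± SD beside them, each panel on its own linear axis from 0. Fbn2 of the 4 ERβKO ovaries lies between 1.97 and 3.87, below all WT ovaries, and Mfap4 and Mfap5 lie above all WT ovaries.

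Fibrillins form the backbone of the microfibril. Fbn1 (ENSMUSG00000027204, chromosome 2 of GRCm38 from 125300594 to 125507993, minus strand) encodes the main fibrillin of adult tissue, and Fbn2 (ENSMUSG00000024598, chromosome 18 from 58008623 to 58209926, minus strand) a fibrillin best known from developing tissue. Fbn2 stood at 10.0, 8.94, 5.19, 9.56 and 7.11 FPKM in WT replicates 1 to 5 and at 3.87, 1.97, 2.34 and 2.51 FPKM in ERβKO replicates 1 to 4. The genotypes did not overlap, with all ERβKO ovaries the lower, and the nearest were ERβKO replicate 1 and WT replicate 3. The mean fell from 8.17 ± 2.0 (SD, n = 5) to 2.67 ± 0.83 (SD, n = 4), a log2FC of -1.64 (SE 0.229, adjusted p = 0.0104, edgeR). The smallest count of Fbn2 in a library was 452 and the largest 2159, so that the gene was well sampled in all 9.

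The lower level of Fbn2 passed the test whichever single ovary was left out, with log2FC from -1.87 to -1.51, and DESeq2 gave -1.64 (adjusted p = 3.76e-10). It did not pass in a pair of the 20 alternatives: with the libraries whose number in the labels is below 200, which leaves out WT replicates 4 and 5, the log2FC was -1.60 (adjusted p = 0.0628, edgeR), and with limma on unfiltered log2(FPKM + 1) it was -1.31 (adjusted p = 0.0555).

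Fbn1 did not pass the test. It was at 12.0, 11.1, 12.6, 9.92 and 9.31 FPKM in the WT ovaries and at 11.1, 8.55, 8.71 and 10.2 FPKM in the ERβKO ovaries. These ranges overlap over most of their length. The log2FC was -0.22 (SE 0.083, adjusted p = 0.178, edgeR), and none of the 20 alternatives called it. Of the exon bases of Fbn1, 20.1% are shared with Gm9913 on the opposite strand, and whether the counting used the strand was not stated, so reads of the pair may not be separated.

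The balance of the fibrillins can be read within a library, as the ratio of their FPKM. In the WT ovaries Fbn2 was at 0.836, 0.809, 0.412, 0.964 and 0.764 of the FPKM of Fbn1. ERβKO ovaries had ratios of 0.348, 0.23, 0.268 and 0.246. In every ovary Fbn1 was thus the more abundant fibrillin, by little in most WT ovaries and by far in all ERβKO ovaries. The mean ratio was 0.757 ± 0.207 (SD, n = 5) in WT and 0.273 ± 0.0522 (SD, n = 4) in ERβKO ovaries.

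**Figure D2:**
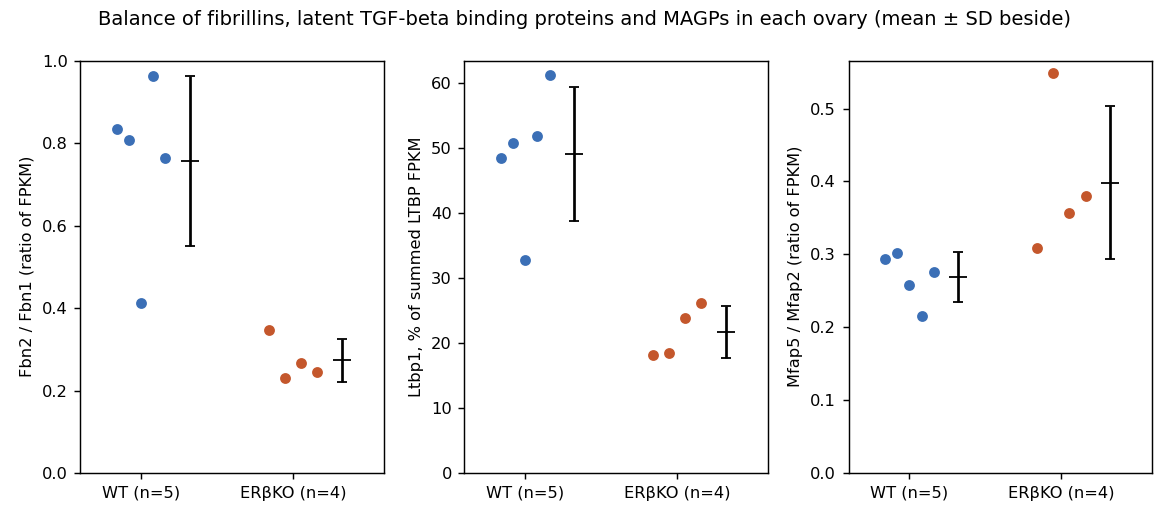
Per-ovary ratio of Fbn2 to Fbn1 FPKM (left), the percentage of Ltbp1 in the summed FPKM of the 4 LTBPs (middle) and the ratio of Mfap5 to Mfap2 FPKM (right), with the mean ± SD beside the points (WT n = 5, ERβKO n = 4). In all 3 panels the genotypes do not overlap; the first and the second are lower and the third is higher in ERβKO ovaries.

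Mfap2 and Mfap5 encode the microfibril-associated glycoproteins MAGP-1 and MAGP-2, small proteins that bind fibrillin, and Mfap4 encodes a fibrinogen-domain protein that binds fibrillin and elastin. Mfap5 (ENSMUSG00000030116, chromosome 6 from 122505845 to 122529290, plus strand) was at 8.43, 8.35, 10.1, 6.0 and 6.6 FPKM in WT ovaries and at 10.5, 17.4, 12.6 and 15.4 FPKM in ERβKO ovaries. All ERβKO ovaries were above all WT ovaries, with ERβKO replicate 1 close to WT replicate 3 and ERβKO replicate 2 the highest. The mean was 7.90 ± 1.63 (SD, n = 5) in WT and 13.95 ± 3.04 (SD, n = 4) in ERβKO ovaries, a log2FC of 0.75 (SE 0.174) or 1.68-fold, which just missed the threshold (adjusted p = 0.0556, edgeR).

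The call of Mfap5 turned on small choices. DESeq2 called it (adjusted p = 0.00329), as did edgeR with no filter on low counts (adjusted p = 0.0428). Leaving out WT replicate 2 (0.75, adjusted p = 0.0458), WT replicate 3 (0.87, adjusted p = 0.026) or ERβKO replicate 1 (0.87, adjusted p = 0.0331) also took it past the threshold in edgeR. It was called in 5 of the 20 alternatives, and its log2FC without 1 ovary stayed between 0.65 and 0.87.

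Mfap4 (ENSMUSG00000042436, chromosome 11 from 61485431 to 61488900, plus strand) had 27.4, 29.4, 35.8, 31.1 and 25.0 FPKM in WT ovaries and 36.7, 42.8, 38.0 and 40.8 FPKM in ERβKO ovaries. The groups did not overlap, but WT replicate 3 and ERβKO replicate 1 nearly touched. The log2FC was 0.38 (SE 0.09, adjusted p = 0.0577, edgeR), under the limit of 0.4 as well as above the limit on p. DESeq2 gave an adjusted p of 0.00925 at a log2FC of 0.38, which also missed the limit on size. Without WT replicate 3, edgeR called Mfap4 at 0.45 (adjusted p = 0.0179).

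Mfap2 (ENSMUSG00000060572, chromosome 4 from 141010418 to 141015984, plus strand) stood at 28.8, 27.6, 39.2, 27.9 and 23.9 FPKM in WT ovaries and at 34.1, 31.7, 35.4 and 40.5 FPKM in ERβKO ovaries. WT replicate 3 was among the highest of all 9, and the groups overlapped through it. The log2FC was 0.24 (SE 0.131, adjusted p = 0.342, edgeR). The ratio of Mfap5 to Mfap2 was 0.215 to 0.302 in WT and 0.308 to 0.549 in ERβKO ovaries, with means of 0.269 ± 0.0345 (SD, n = 5) and 0.398 ± 0.105 (SD, n = 4). The 2 MAGP genes thus lay nearer to each other in ERβKO ovaries, with Mfap2 still the higher in every library.

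Since ERβ binds estrogen response elements, the bases upstream of the members' start sites were searched for its motif. RefSeq promoter windows were matched for 6 members (9 windows), and the 250 bases before each start site were read on both strands. The element GGTCANNNTGACC was in none of the 9 and in 0.0639% of all 32851 windows, and TCAAGGTCA, which NR5A receptors bind, was in none and in 0.387% of all. At shares this low, finding none in 9 windows says little about the members. The half-site AGGTCA, which lies within TCAAGGTCA and overlaps the element above, was in 2 of the 9, both of Mfap2, and in 14.0% of all windows. The stretch upstream of Mfap2, chr4:141010174-141010417 on the plus strand of GRCm38.p6, is shown since it alone among the matched members holds the half-site, in capitals and starting 150 bases before the RefSeq start site.
Mfap2 upstream: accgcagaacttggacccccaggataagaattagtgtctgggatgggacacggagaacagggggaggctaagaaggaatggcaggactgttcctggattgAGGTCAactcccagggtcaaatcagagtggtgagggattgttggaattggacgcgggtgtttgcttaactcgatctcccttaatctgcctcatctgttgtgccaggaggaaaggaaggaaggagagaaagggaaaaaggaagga
The match describes these letters and is no binding site by itself. Promoters of Fbn2, Eln, Mfap4 and Mfap5 were not analysed here. The study lists a site bound by ERβ in an intron of Fbn2, outside windows of this kind, in which it found both kinds of motif.

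Elastin is the elastic core of the fibre. Eln (ENSMUSG00000029675, chromosome 5 from 134702593 to 134747323, minus strand) was at 7.96, 12.1, 9.22, 8.17 and 7.08 FPKM in WT ovaries and at 11.8, 11.6, 10.6 and 10.9 FPKM in ERβKO ovaries. WT replicate 2, the library that stood apart, was the highest of all 9, and the other WT ovaries were below every ERβKO ovary. The log2FC was 0.29 (SE 0.129, adjusted p = 0.248, edgeR). Without WT replicate 2 it was 0.42 and passed the test (adjusted p = 0.0198), and without WT replicate 2 and ERβKO replicate 3 together it was 0.43 (adjusted p = 0.0462). The ERβKO ovaries were close to each other, with a coefficient of variation of 5.17% against 21.7% in WT.

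Fibulins and EMILIN-1 are glycoproteins that join elastin to microfibrils and to cells. Fbln1 (ENSMUSG00000006369, chromosome 15 from 85205949 to 85286535, plus strand), which binds elastin, fibronectin and basement membrane, was at 27.7, 23.8, 38.1, 28.8 and 25.7 FPKM in WT and at 43.7, 43.4, 30.7 and 43.8 FPKM in ERβKO ovaries. A single ovary of each genotype, WT replicate 3 and ERβKO replicate 3, lay toward the other genotype, and the remaining ovaries were far apart. The log2FC was 0.48 (SE 0.148, adjusted p = 0.119, edgeR). DESeq2 called it (0.47, adjusted p = 0.0443), and without WT replicate 3 edgeR called it at 0.60 (adjusted p = 0.0309).

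Fbln2 (ENSMUSG00000064080, chromosome 6 from 91212455 to 91272540, plus strand), a fibulin of vessel walls and basement membranes, varied most of the members between ovaries of the same genotype, with coefficients of variation of 79.4% in WT and 64.6% in ERβKO. It was at 3.67, 16.4, 7.77, 3.65 and 3.47 FPKM in WT ovaries and at 5.66, 5.69, 18.9 and 8.56 FPKM in ERβKO ovaries. WT replicate 2 and ERβKO replicate 3 carried the high values, and the genotypes overlapped over nearly the whole range. The log2FC was 0.52 (SE 0.515, adjusted p = 0.618, edgeR). It was -0.047 without ERβKO replicate 3 and 1.06 without WT replicate 2, and 0.49 without both (adjusted p = 0.363, edgeR). In these same ovaries Fbln2 reached 0.688 and 0.615 of the FPKM of Fbln1, against 0.127 to 0.204 in the other 7.

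Fbln5 (ENSMUSG00000021186, chromosome 12 from 101746565 to 101819055, minus strand) guides elastin onto microfibrils and recruits the cross-linking enzyme LOXL1. It had 2.48, 2.66, 2.26, 2.83 and 2.58 FPKM in WT ovaries and 3.19, 3.02, 2.74 and 3.15 FPKM in ERβKO ovaries. ERβKO replicate 3 fell within the WT range, and the other ERβKO ovaries were above it. The log2FC was 0.21 (SE 0.084, adjusted p = 0.213, edgeR), and no alternative called it. Fbln5 is on the chromosome of Esr2, 25.6 Mb away.

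Emilin1 (ENSMUSG00000029163, chromosome 5 from 30913402 to 30921277, plus strand) encodes a glycoprotein at the border of elastin and microfibrils that also limits TGF-beta processing. Its levels were 12.6, 12.8, 14.5, 8.85 and 7.82 FPKM in WT and 12.4, 8.93, 11.9 and 11.9 FPKM in ERβKO ovaries. The WT ovaries split into higher and lower ones, and the ERβKO ovaries lay inside their range. The log2FC was -0.018 (SE 0.176, adjusted p = 0.965, edgeR), and its sign changed in 7 alternatives.

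Set in order of mean FPKM, the members formed similar tiers in both genotypes apart from Fbn2 and Mfap5. In WT ovaries Mfap4 (29.7), Mfap2 (29.5) and Fbln1 (28.8) were the most abundant and did not differ beyond their spread. Then came Emilin1 (11.3), Fbn1 (11.0), Eln (8.90), Fbn2 (8.17), Mfap5 (7.90) and Fbln2 (6.98), whose neighbouring ranges also overlapped. Fbln5 was last at 2.56 FPKM, below the range of its neighbour. In ERβKO ovaries Fbln1 (40.4), Mfap4 (39.6) and Mfap2 (35.4) again led, Mfap5 (13.95) headed the next tier before Emilin1 (11.3), Eln (11.2), Fbln2 (9.70) and Fbn1 (9.64), and Fbn2 (2.67) stood last beside Fbln5 (3.03), with overlapping ranges.

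The summed FPKM of the 10 genes was 118.6 to 174.7 in WT and 171.8 to 187.7 in ERβKO ovaries. Fbn2 made up 2.97% to 7.12% of that sum in WT and 1.13% to 2.24% in ERβKO ovaries. Mfap5 made up 4.39% to 5.98% in WT and 6.06% to 9.93% in ERβKO ovaries. Shares of Mfap2 overlapped almost fully, at 18.1% to 22.4% and 18.1% to 21.6%.

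The spread among WT ovaries was shared by several members. WT replicate 3 was the highest WT ovary for 6 members (Fbn1, Fbln1, Emilin1, Mfap2, Mfap4 and Mfap5) and the lowest for Fbn2 and Fbln5. WT replicate 5 was the lowest WT ovary for 6 members (Fbn1, Eln, Fbln2, Emilin1, Mfap2 and Mfap4). In fibrillin levels, WT replicate 3 was thus at opposite ends, the highest WT ovary for Fbn1 and the lowest for Fbn2. Among ERβKO ovaries, replicate 1 was the highest for 5 members, Fbn1 and Fbn2 among them.

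**Figure D3:**
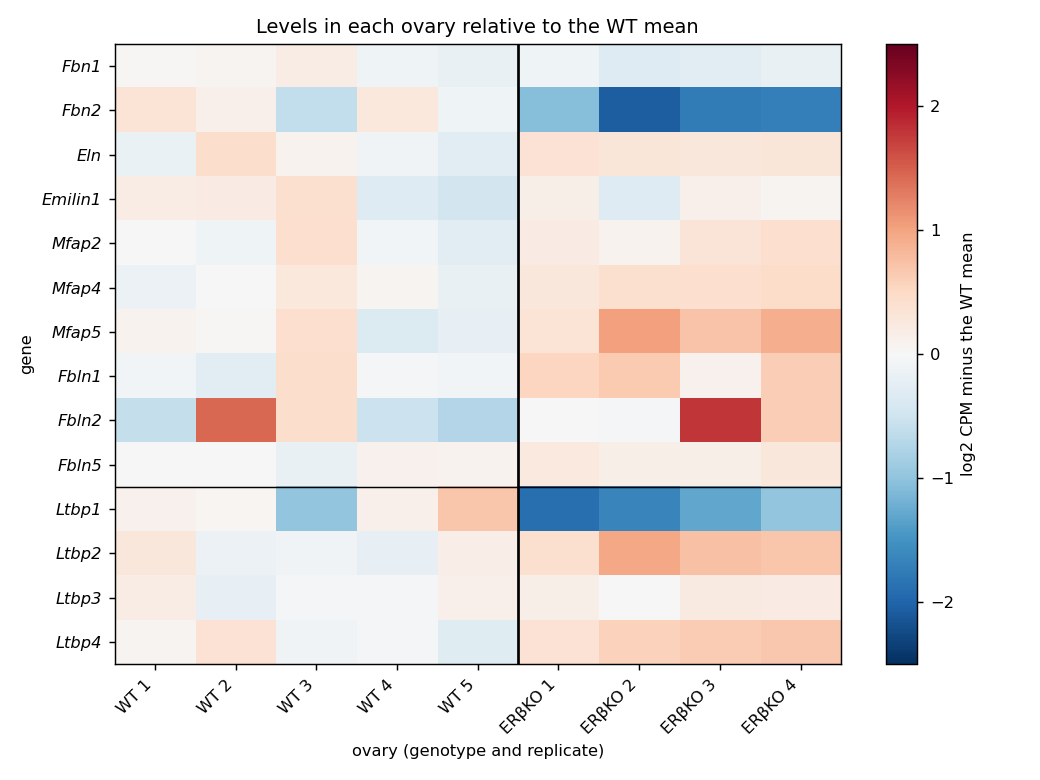
Log2 CPM (counts scaled to library size) of the 10 members and the 4 LTBPs in each ovary minus the mean of the 5 WT ovaries, red above and blue below it; rows are genes, columns are ovaries, and the lines part the genotypes and the LTBPs from the members. Fbn2 and Ltbp1 are below the WT mean in all 4 ERβKO ovaries and in WT replicate 3, and Fbln2 is high in WT replicate 2 and ERβKO replicate 3.

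The partners of these genes in fibre assembly and turnover were read from 8 lists of 46 genes, of which 45 were tested. DEGs numbered 4 (8.89%, against 1.72% of all tested genes), 2 higher and 2 lower, and DESeq2 called 7 (against 4.78% of all). FPKM did not overlap for 8 genes higher and 3 lower in ERβKO ovaries (4.29% and 3.31% of all tested genes). An unadjusted p under 0.05 was reached by 3 of the 4 LTBPs, against 19.8% of all tested genes. For the other lists this number is given with each of them below. Members and lists were chosen with earlier results of these data known, so these shares describe them and test nothing. Of the log2FC of the 45 partner genes, 22 were above 0 and 23 below, with a median of -0.033. LTBPs supplied 3 of the DEGs.

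LTBPs resemble fibrillins in sequence and tether latent TGF-beta to microfibrils. Ltbp1 was at 51.5, 55.0, 23.3, 51.9 and 75.3 FPKM in WT ovaries and at 13.6, 15.0, 21.1 and 24.4 FPKM in ERβKO ovaries. WT replicate 3 lay within the ERβKO range, and the other WT ovaries were well above it. That ovary was also the lowest WT ovary for Fbn2, though there above all ERβKO ovaries. Ltbp1 fell from 51.4 ± 18.5 (SD, n = 5) to 18.5 ± 5.08 (SD, n = 4), with a log2FC of -1.51 (SE 0.293, adjusted p = 0.0323, edgeR). The call was lost without WT replicate 1, 4 or 5 or any single ERβKO ovary (adjusted p from 0.0586 to 0.116), and the log2FC then stayed between -1.68 and -1.31.

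Ltbp2 and Ltbp4 went the other way. Ltbp2, which binds fibrillin but not latent TGF-beta, was at 3.22 ± 0.493 FPKM (SD, n = 5) in WT and 5.39 ± 1.01 (SD, n = 4) in ERβKO ovaries without overlap, and rose by a log2FC of 0.70 (SE 0.133, adjusted p = 0.0304, edgeR). The call was lost without WT replicate 4 or 5 or ERβKO replicate 2, 3 or 4 (adjusted p from 0.0542 to 0.0991). Ltbp2 lies 8.61 Mb from Esr2, and 9.34% of its exon bases are shared with a gene on the opposite strand. Ltbp4, which binds fibulins and helps to deposit elastin, rose from 20.2 ± 4.03 (SD, n = 5) to 30.2 ± 2.51 FPKM (SD, n = 4), a log2FC of 0.55 (SE 0.119, adjusted p = 0.0457, edgeR). That call was lost without WT replicate 1, 3, 4 or 5 or ERβKO replicate 2, 3 or 4 (adjusted p from 0.0673 to 0.13). The genotypes overlapped through WT replicate 2 (26.6 FPKM), and without that ovary the log2FC of Ltbp4 was 0.65 (adjusted p = 0.00775, edgeR). Ltbp3 did not pass the test (0.14, SE 0.086, adjusted p = 0.384, edgeR).

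Ltbp1 thus changed its place among the LTBPs. It held 48.5%, 50.8%, 32.8%, 51.9% and 61.3% of their summed FPKM in WT ovaries and 18.1%, 18.5%, 23.9% and 26.1% in ERβKO ovaries. The groups did not overlap, with means of 49.1% ± 10.3 (SD, n = 5) and 21.7% ± 3.97 (SD, n = 4). The summed FPKM of the LTBPs itself overlapped, at 70.95 to 122.9 in WT and 75.07 to 93.26 in ERβKO ovaries.

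**Figure D4:**
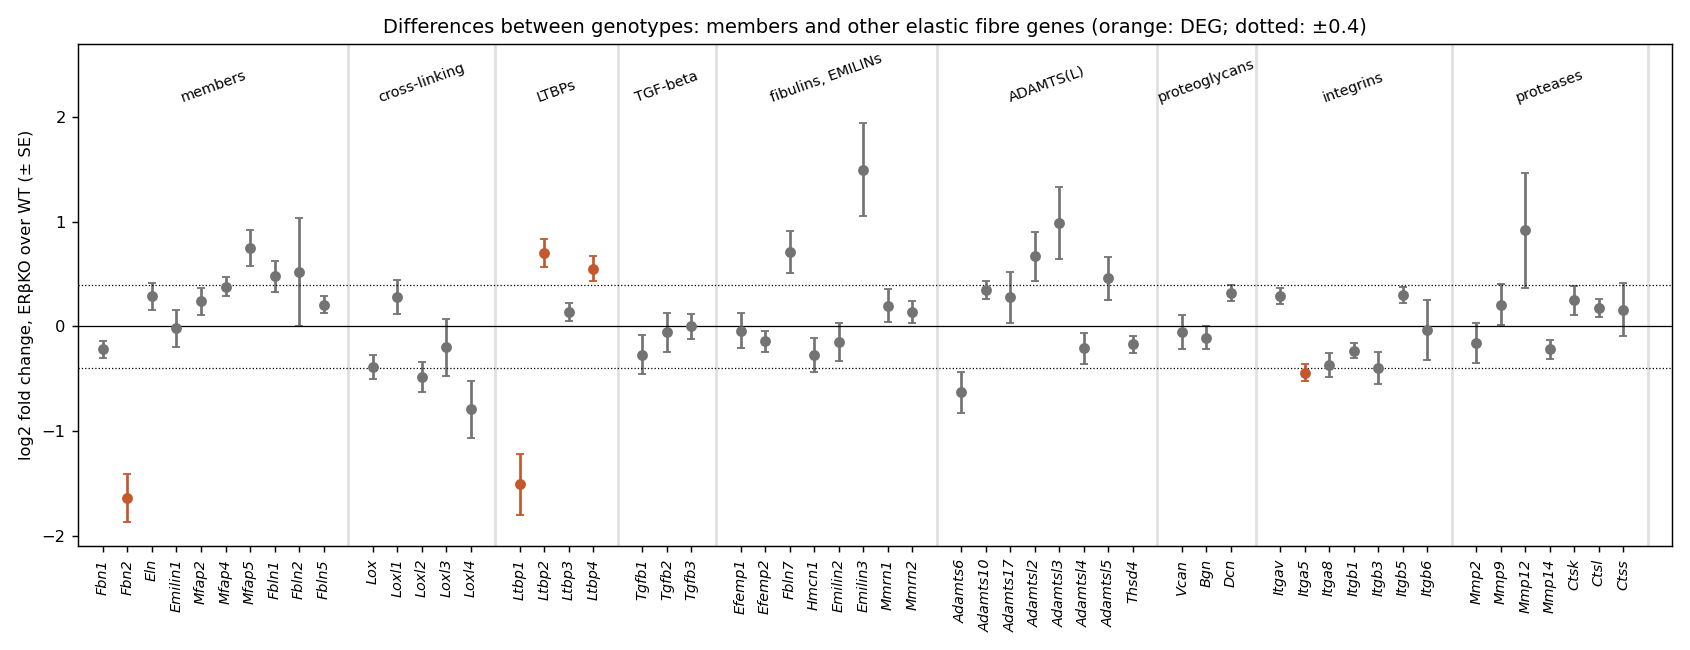
Log2FC (ERβKO over WT, edgeR, bars ± SE) of the 10 members and the 45 tested partner genes, grouped by role, with DEGs in orange and dotted lines at ±0.4. Fbn2 (-1.64) and Ltbp1 (-1.51) are the lowest points, and Ltbp2 (0.70), Ltbp4 (0.55) and Itga5 (-0.44) are the other DEGs.

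None of the 5 cross-linking enzymes, which join elastin monomers covalently, was a DEG in edgeR, with 3 at an unadjusted p under 0.05 and 1 DEG in DESeq2. Their median log2FC was -0.39, with 4 of 5 below 0. Loxl2, the most abundant, was at 20.5 ± 4.46 FPKM (SD, n = 5) in WT and 15.4 ± 1.41 (SD, n = 4) in ERβKO ovaries (-0.48, adjusted p = 0.109 in edgeR and 0.0341 in DESeq2). Of the integrin subunits that bind fibrillins or fibulins, 1 of 7 was a DEG: Itga5, a subunit of the fibronectin receptor, fell by 0.44 on the log2 scale (adjusted p = 0.0219, edgeR). In this list 6 of 7 had an unadjusted p under 0.05 (19.8% of all tested genes), and 2 log2FC were above 0 and 5 below. The FPKM of 4 of 7 did not overlap (7.61% of all), 2 of them higher and 2 lower in ERβKO ovaries. DESeq2 called 1 of this list (4.78% of all). The call of Itga5 was lost without WT replicate 1 or ERβKO replicate 2 or 4 (adjusted p from 0.0627 to 0.0899), and without ERβKO replicate 1 it was under the limit of size (-0.39). Itgb1, the most abundant subunit, was at -0.23 (adjusted p = 0.118, edgeR).

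The other lists held no DEG in edgeR. Of 8 microfibril-associated ADAMTS and ADAMTS-like genes, which act on or bind fibrillin, 5 had a log2FC above 0. An unadjusted p under 0.05 was reached by 5 (19.8% of all tested genes), and 1 was a DEG in DESeq2 (4.78% of all). The FPKM of the genotypes did not overlap for 3 higher and 1 lower in ERβKO ovaries (4.29% and 3.31% of all). Adamts10, the most abundant and a promoter of fibrillin-1 assembly, was at 22.7 ± 3.17 FPKM (SD, n = 5) and 30.2 ± 2.03 (SD, n = 4) without overlap (0.35, adjusted p = 0.0683, edgeR). The 8 other fibulins and EMILIN family members divided into 4 above 0 and 4 below, with 2 at an unadjusted p under 0.05 and 1 DEG in DESeq2, and the most abundant, Efemp1, was at -0.042 (adjusted p = 0.916, edgeR). Adamts6, Fbln7 and Loxl2 were DEGs with DESeq2 but not with edgeR; the first and second are named here because of that result.

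For the next 3 lists, the shares over all tested genes were 19.8% at an unadjusted p under 0.05, 4.78% DEGs in DESeq2 and 7.61% without overlap of FPKM. The 3 TGF-beta ligands differed by less than 0.3 on the log2 scale with 0 DEGs in DESeq2 and 0 at an unadjusted p under 0.05, and Tgfb3, the most abundant, was at 0.001 (SE 0.121, adjusted p = 0.996, edgeR). Of the 3 proteoglycans found with elastic fibres, the small collagen-binding Dcn was the most abundant, at 357 ± 40.2 FPKM (SD, n = 5) in WT and 456 ± 33.7 (SD, n = 4) in ERβKO ovaries without overlap (0.32, adjusted p = 0.0672, edgeR); it was the 1 of the 3 with an unadjusted p under 0.05, and DESeq2 called 0 of them. Among 8 elastin-degrading proteases, Elane (neutrophil elastase) was listed at 0 FPKM in every ovary and was not tested. Ctsl, the most abundant of the other 7, was at 0.18 (adjusted p = 0.282, edgeR), and 1 of the 7 had an unadjusted p under 0.05 and 0 were DEGs in DESeq2. Of the exon bases of Ctsl, 26.8% are shared with genes on the opposite strand and 6.09% on the same strand. For Tgfb3, 12.4% are shared on the opposite strand.

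The genes whose log2 CPM over the 9 ovaries, centred on each gene's mean, lay closest to that of Fbn2 by Euclidean distance were Apold1 (0.922), Car14 (0.942) and RP23-301C7.2 (1.0). Car14, a membrane-bound carbonic anhydrase, was at 29.2, 25.2, 19.4, 28.4 and 26.3 FPKM in WT ovaries and at 10.8, 10.7, 9.52 and 10.7 in ERβKO ovaries, with WT replicate 3 again the lowest WT ovary. Its log2FC was -1.34 and that of Apold1, an endothelial gene, was -1.40, and both were DEGs, while RP23-301C7.2, listed below 0.3 FPKM in every ovary, was at -1.90 (adjusted p = 0.0607, edgeR). Closest to Mfap5 were Edn3 (0.442), the precursor of endothelin-3, H2-M3 (0.483), a class Ib antigen-presenting molecule, and Chst4 (0.541), a sulfotransferase. Their log2FC were 0.67, 0.55 and 0.49, and none was a DEG in edgeR. Apold1 was low, between 0.519 and 2.24 FPKM. All of these genes were chosen by likeness over the same 9 ovaries, so similar log2FC follow from the choice and are no separate result.

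Marker lists of cell types that could carry these genes were set beside the members. Over all tested genes, 1.72% were DEGs in edgeR, 4.78% were DEGs in DESeq2 and 19.8% had an unadjusted p under 0.05. The 6 fibroblast and stroma markers summed to 241 to 547 FPKM in WT and 285 to 368 in ERβKO ovaries, with 0 of 6 DEGs in edgeR or DESeq2, 1 at an unadjusted p under 0.05 and a median log2FC of -0.07. The 6 smooth muscle markers summed to 637 to 1147 and 657 to 807 FPKM, also with 0 of 6 DEGs in both tools and 0 at an unadjusted p under 0.05. The adventitial fibroblast markers, of which 4 of 5 were tested, summed to 57.7 to 81.2 FPKM in WT and 83.7 to 99.0 in ERβKO ovaries without overlap. Of the 4, 1 was a DEG in edgeR, 2 were DEGs in DESeq2 (Pi16 and Anxa3), 3 had an unadjusted p under 0.05, and 3 log2FC were above 0 and 1 below. Pi16 rose from 0.720 ± 0.147 (SD, n = 5) to 1.54 ± 0.227 FPKM (SD, n = 4), a log2FC of 1.11 (adjusted p = 0.0173, edgeR), but the sum was mostly Anxa3 (29.2 to 48.7 FPKM in WT and 52.4 to 63.7 in ERβKO ovaries; log2FC 0.48, adjusted p = 0.0801, edgeR) and Cd55 (0.40, adjusted p = 0.208, edgeR). Dpp4 was at -0.14 (adjusted p = 0.575, edgeR). Wnt2, the untested marker, was at 0 in 1 library. Like Mfap4 and Mfap5, the sum was higher in all ERβKO than in all WT ovaries. In WT replicate 3, the highest WT ovary for both genes, the sum was 58.5 FPKM, near the lowest. Anxa3 was there at 29.2 FPKM, its lowest value. Pi16 (0.785 FPKM) and Cd55 (22.7 FPKM) were there above all other WT ovaries except WT replicate 2, and Dpp4 (5.49 FPKM) lay in the middle of the WT ovaries. The part of these cells in the members was not tested.

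The 6 luteal markers summed to 1767 to 4140 FPKM in WT and 1743 to 2484 in ERβKO ovaries, with a median log2FC of -0.73, 5 of 6 below 0, 0 DEGs in edgeR, 2 in DESeq2 and 3 at an unadjusted p under 0.05. The luteal sums overlapped through WT replicate 2 (1767 FPKM), and the other WT ovaries, at 2587 to 4140 FPKM, were above every ERβKO ovary. Most of the luteal sum was Hsd3b1, at 1510 to 3490 FPKM in WT and 1640 to 1740 in ERβKO ovaries. The 6 granulosa markers summed to 436 to 506 and 493 to 724 FPKM, with a median of 0.41 and 0 DEGs in edgeR, 2 in DESeq2 and 2 at an unadjusted p under 0.05. Most of the granulosa sum was Inha, at 336 to 399 FPKM in WT and 387 to 590 in ERβKO ovaries. Endothelial markers overlapped, at 53.9 to 71.7 and 53.6 to 66.8 FPKM, and theca markers ranged widely, at 30.7 to 148 and 75.0 to 488 FPKM; each list had 0 DEGs in both tools and 1 gene at an unadjusted p under 0.05. The 5 adipocyte markers summed to 39.4 to 81.1 FPKM in WT and 41.9 to 312 in ERβKO ovaries, with a median log2FC of 1.36, 0 DEGs in edgeR, 3 in DESeq2 and 5 at an unadjusted p under 0.05. Their sum was highest in ERβKO replicate 1, the lowest ERβKO ovary for Mfap5, and in ERβKO replicate 4 (41.9 FPKM) it was within the WT range. The part of any of these in the values of the members was not tested.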

How the data were processed

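Raw counts of fragments per gene were deposited by the authors in 1 table of 46078 genes, without normalization, and FPKM per gene were deposited for each library. Per the labels and the study's methods, stranded poly-A libraries of read pairs of 150 bp were made, demultiplexed with bcl2fastq 2.20.0.422, trimmed with Trim Galore, mapped to GRCm38 with STAR, counted with featureCounts and quantified with StringTie; the strand setting of the counting was not given in the sources used here. Replicates were not pooled. TPM and coverage columns were not used. FPKM were joined by gene ID; 17 IDs had several FPKM rows, and none was a member.

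Counts were filtered with edgeR's filterByExpr (16722 genes left), normalized by TMM and tested with edgeR 4.0.16 in R 4.3.3, using the quasi-likelihood F test with genotype as the factor and Benjamini-Hochberg adjustment over all genes tested. The SE was taken from the log2FC and the F statistic. The common biological coefficient of variation was 0.179, and libraries held 12353740 to 18717510 counted fragments, which limits the precision of genes with few counts; the members had at least 209 counts in every library. Members and lists were chosen with earlier results of these data known. Named genes are the members, every DEG and the most abundant gene of each partner list, and, for the member with the smallest p in each direction, the 3 genes of the most similar pattern. Ltbp3, Elane, Adamts6, Fbln7, the marker genes named and the genes nearest to Fbln2 fall outside this rule and were chosen after their values were seen. Log2 CPM used a prior count of 2. Gene overlaps came from GENCODE vM21 and promoter windows from RefSeq (GRCm38.p6).

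Alternatives were DESeq2 1.42.0, DESeq2's size factors or upper-quartile factors in edgeR, no filter, at least 10 counts in every library, adjusted p alone, a replicate block, each library left out in turn, libraries numbered below 200, and limma 3.58.1 on the deposited FPKM as log2(FPKM + 1) or log2(FPKM + 0.1) with a mean FPKM over 0.1, or log2(FPKM + 1) without that filter. The fit with a replicate block used replicates 1 to 4 of each genotype and so left out WT replicate 5. Leaving out WT replicate 2 and ERβKO replicate 3 together was chosen after seeing the data. The fits were first tested on simulated data. Tables and figures were made with Python 3.11.15, NumPy 2.4.6, pandas 2.3.3 and matplotlib 3.10.9. The study's chromatin data were not analysed here.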

Additional observations from a re-analysis of the deposited data

Results flagged for a closer look

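Fbln1 in ERβKO replicate 3 was at 30.7 FPKM, while the other ERβKO ovaries were at 43.4 to 43.8. The gap to the nearest was 0.968 of the whole range of the genotype, above Dixon's 95% critical value for 4 samples.

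Emilin1 in ERβKO replicate 2 was at 8.93 FPKM, with the other ERβKO ovaries at 11.9 to 12.4. Its gap was 0.835 of the range, just above the same critical value.

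These were 2 of the 28 groups examined (14 genes in each genotype), and chance alone flags about 1 in 20.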

How the results depend on the processing

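Over 14 named genes and 280 refits, 215 kept direction and call, 47 lost the call, 10 gained it and 8 changed sign. The signs were those of Fbln2 without ERβKO replicate 3 (-0.047, in a range up to 1.06 without WT replicate 2) and of Emilin1 without WT replicate 1 (0.021), 2 (0.025) or 3 (0.088), without ERβKO replicate 2 (0.083; down to -0.12 without WT replicate 5), and with limma (0.02 filtered, 0.023 with the pseudocount 0.1, 0.02 unfiltered).

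The count of member DEGs, 1, was 3 with DESeq2, 2 with no filter on low counts, 0 with libraries numbered below 200, 0 with limma unfiltered, 2 without WT replicate 2 and ERβKO replicate 3 (chosen after seeing the data), and 1 to 4 without single libraries. The highest, 4, was without WT replicate 3; it was 3 without WT replicate 2 and 2 without ERβKO replicate 1. The count of partner DEGs, 4, was 7 with DESeq2, 0 with libraries numbered below 200, 0 in each of the 3 limma fits and 0 to 4 without single libraries, with 0 without ERβKO replicate 2 or 4. The count over all genes, 287, was 800 with DESeq2, 51 with libraries numbered below 200, 493 without the pair above, 161, 190 and 39 with limma, and 60 (without ERβKO replicate 2) to 919 (without WT replicate 2) without single libraries.

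With the replicate number as a block, fitted on replicates 1 to 4 and so without WT replicate 5, member DEGs stayed at 1 (Fbn2), partner DEGs were 0 and all DEGs 151. Without WT replicate 5 and with no block, these counts were 1, 1 and 110, so the block and the loss of that ovary cannot be told apart. Deviations of same-numbered ovaries correlated at 0.0948, 0.13, -0.0427 and -0.0105, and 0 of 8 libraries correlated best with its own number. So few ovaries cannot show whether the numbers pair them. The causes of these changes were not tested. With 5 and 4 ovaries and 1 library each, the spread between mice, more than depth, limits the members, which had at least 209 counts in every library.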

Other observations

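Fbln2 was high in WT replicate 2 and ERβKO replicate 3, and the genes nearest to it by the distance used for Fbn2 and Mfap5 were looked up after that was seen. They were Cntn1 (0.702), Upk1a (0.885) and Spon1 (0.929), which encode a neural adhesion molecule, a uroplakin and the matrix protein F-spondin. Upk1a was at 72.8 FPKM in WT replicate 2 and 98.7 in ERβKO replicate 3, against 16.0 to 46.8 in the other WT ovaries and 38.5 to 59.3 in the other ERβKO ovaries. Spon1 was at 14.4 and 15.9 FPKM in that pair of ovaries and at 3.19 to 12.7 in the others. Like Fbln2, none of these genes was a DEG, with adjusted p of 0.652, 0.438 and 0.397 for Cntn1, Upk1a and Spon1 in edgeR's quasi-likelihood test. They were chosen by likeness over the same ovaries, so high values in that pair follow from the choice.

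The surface epithelium markers, a list that includes the uroplakin genes Upk3b and Upk1b, summed to 99.9 to 144 FPKM in WT and 138 to 163 in ERβKO ovaries, with 0 of 5 DEGs in edgeR and in DESeq2, 2 at an unadjusted p under 0.05 and a median log2FC of 0.29. The oviduct epithelium markers summed to 1345 to 2456 FPKM in WT and 1560 to 1998 in ERβKO ovaries, with 0 of 4 DEGs in both tools and 1 at an unadjusted p under 0.05.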
